A study of Mus musculus with 250 samples.

Results

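The erythroid and heme synthesis genes are 38 genes of red cell formation, chosen by name: the transcription factors that direct it with the erythropoietin receptor, the enzymes and carriers of heme synthesis, the membrane skeleton, the surface proteins and blood groups, the red cell enzymes and a few proteins of late maturation. A gene counted as measured where the array's annotation gives a probe set that single symbol, which held for 36 of the 38, of 18193 genes in all; Ahsp and Trim58 had no such probe set. The 36 genes were read by 62 probe sets, 22 genes by 1 probe set and 14 by several. Where several probe sets read a gene, the brightest on average stood for it.

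The study profiled spleen, blood cells (blood without its plasma), liver, whole breast and thymus from 25 matched pairs of mice (a tumor-bearing mouse and its control) per tissue on 250 Affymetrix mouse genome arrays, and asked how a mammary tumor alters the transcriptome of the breast and of distant tissues. All mice were FVB females. Tumor-bearing mice carried both MMTV-rtTA and TetO-NeuNT, so that doxycycline switches on activated Neu (the rat Her2 homolog) where the MMTV promoter, active mainly in mammary epithelium, drives the transactivator; controls were littermates with TetO-NeuNT alone, matched by age and cage. Controls as well as tumor-bearing mice were given doxycycline (2 mg/mL, in water sweetened with 5% sucrose) once they were 8 weeks old, and each pair was taken when the tumor reached 1 cm, so no single age applies. Levels are log2 intensity and changes are differences of log2 intensity, tumor-bearing minus matched control, ± standard error (SE). The 5 tissues may have been scaled separately, which the sources do not state, so levels are compared only within a tissue and a gene.

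Red cells arise from progenitors that divide several times, fill with hemoglobin and lose their nucleus. GATA1, TAL1, LMO2 and KLF1 act together on the genes of this path, erythropoietin signalling through its receptor keeps the progenitors alive, and heme is built in steps shared between mitochondrion and cytosol, starting in erythroid cells with ALAS2. In the mouse the spleen remains a site of red cell formation throughout adult life and expands it under stress, whereas the liver does so before birth and blood mostly holds reticulocytes and mature cells. In tissue RNA, fewer cells of a type and less RNA per cell cannot be told apart.

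As GATA1 is itself a member and binds GATA letters, the 250 bases before the annotated start of the members were searched in the RefSeq promoter table (build GRCm38.p6, from C57BL/6J, not from FVB). It held 27 of the 36 measured genes. Tal1, Uros, Alad and Tmcc2 have several annotated starts there, and a member counted as matched if any of its windows held the letters. The letters AGATAA or TGATAA, and likewise AGATAG or TGATAG, on either strand, stood in 17 of these 27 (63.0%) and in 29.8% of 27025 genes. The looser CACCC-type letters CCNCNCCC, on either strand, also stood in 17 of 27, against 48.5% of all genes. The exact letters CCACACCC stood in 0 of 27 against 3.68%, and a set of 6 fixed CACCC spellings (CCACACCC again, with CCGCACCC and also CCACGCCC, then CCGCGCCC, further CCTCACCC and lastly CCCCACCC) in 8 of 27 (29.6%) against 23.6%; the 3 CACCC-type searches overlap, and all 4 searches are given, since they were chosen after matches had been seen. A match is a run of letters, not a shown binding site. These searches are shown on 5 stretches, printed 5′ to 3′ on the gene's strand, each ending at the base before the start, for genes on which the results turn: the first heme enzyme, a factor, a surface protein with a large change in spleen, the hormone receptor, and Gata1, 1 of the 10 members with none of the GATA letters in the window. Capitals mark the GATA letters or their reverse complement.
Alas2 (chrX:150547167-150547416, plus strand): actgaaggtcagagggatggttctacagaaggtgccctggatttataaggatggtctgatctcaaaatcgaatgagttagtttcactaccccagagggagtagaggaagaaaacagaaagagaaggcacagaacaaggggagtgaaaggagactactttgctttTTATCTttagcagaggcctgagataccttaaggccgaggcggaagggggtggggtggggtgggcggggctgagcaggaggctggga
Klf1 (chr8:84901732-84901981, plus strand): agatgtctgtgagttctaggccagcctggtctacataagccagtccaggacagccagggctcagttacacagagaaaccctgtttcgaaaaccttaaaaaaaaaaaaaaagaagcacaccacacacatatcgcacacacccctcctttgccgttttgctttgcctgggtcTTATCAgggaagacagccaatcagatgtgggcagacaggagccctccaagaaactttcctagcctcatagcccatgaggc
Icam4 (chr9:21029182-21029431, plus strand): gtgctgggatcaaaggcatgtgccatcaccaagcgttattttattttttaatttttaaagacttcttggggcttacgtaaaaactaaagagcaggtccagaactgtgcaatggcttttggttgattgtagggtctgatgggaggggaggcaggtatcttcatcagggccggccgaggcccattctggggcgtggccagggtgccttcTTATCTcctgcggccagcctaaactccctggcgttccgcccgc
Epor (chr9:21963577-21963826, minus strand): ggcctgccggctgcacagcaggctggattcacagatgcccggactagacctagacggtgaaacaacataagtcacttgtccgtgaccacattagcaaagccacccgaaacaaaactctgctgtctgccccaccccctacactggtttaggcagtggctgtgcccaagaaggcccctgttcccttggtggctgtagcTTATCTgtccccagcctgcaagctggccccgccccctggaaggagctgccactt
Gata1 (chrX:7967911-7968160, minus strand): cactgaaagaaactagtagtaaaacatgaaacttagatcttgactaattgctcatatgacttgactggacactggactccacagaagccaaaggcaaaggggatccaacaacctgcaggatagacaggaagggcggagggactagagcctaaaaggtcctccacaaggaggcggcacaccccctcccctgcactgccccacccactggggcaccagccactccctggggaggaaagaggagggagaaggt
The match began 86 bases before the start in Alas2, 80 in Klf1, 43 in Icam4 and 54 in Epor. Of the 10 members without a match, Alad, Urod, Ppox, Hebp1 and Slc25a38 belong to heme synthesis and transport.

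Before the results, 5 arrays went against their tissue labels. Each was set against the median profile of every tissue by Spearman correlation over all probe sets, and each resembled another tissue's profile more than its own, whereas all other arrays were closest to their labelled tissue. In spleen these were the control array of pair 13 (0.845 with spleen, 0.870 with breast), the control array of pair 21 (0.846 with spleen, 0.874 with breast) and the tumor-bearing array of pair 21 (0.931 with spleen, 0.977 with thymus). Umod, the uromodulin of kidney tubules, stood at 14.34 and 13.46 (log2 intensity) on the first and second of them against a spleen median of 4.36, and Rag1, the recombinase of developing lymphocytes, at 12.63 on the last against 4.20. In thymus the control array of pair 20 was closer to spleen (0.984) than to thymus (0.939), with Klf1 at 13.31 against a thymus median of 5.50, and the control array of pair 11 was closer to breast (0.928) than to thymus (0.904), with Cyp11a1, an enzyme of steroid hormone synthesis, at 14.31 against 5.12. These genes were picked for their values, and others stood further above the tissue median. On the tumor-bearing spleen array of pair 21 these included Bpifa1 (14.29 against 4.14), Scgb1a1 (13.83 against 4.46) and Myh6 (12.68 against 3.89). On the thymus control of pair 20 they were Cpb1 (12.98 against 4.72) and Cela2a (13.35 against 5.12). Whether these arrays hold a mixture of tissues was not tested. In liver 7 hepatocyte genes summed to an intensity of 85790 or more on every array. In thymus 8 thymocyte genes summed to medians of 54430 (tumor-bearing) and 56050 (control), with lowest arrays at 28060 and 3355. Genes of other tissues were high on some blood arrays. Hepatocyte genes there reached 12960 in tumor-bearing mice and 26550 in controls, against medians of 277.3 and 314.4. Genes of mammary epithelium and fat reached 19720 in blood controls, against a median of 134.1. On the 3 spleen arrays 27, 28 and 34 of the 36 members lay below every other spleen array, and on the thymus control of pair 20 all 36 members lay above every other thymus array. Counting by correlation with the other arrays of the same tissue, 15 arrays stood apart: 3 in spleen (the same 3), 4 in blood, 5 in liver, 1 in breast and 2 in thymus. Results are given for all 25 pairs and without such arrays.

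Spleen was the tissue in which the whole group moved. Of 36 members 34 rose in tumor-bearing mice and 0 fell (limma with the matched pair as block, Benjamini-Hochberg adjusted p under 0.05 over all genes), where 22.5% of all genes tested rose and 18.5% fell. The median change of the members was 1.02 on the log2 scale, against 0.00 for all genes. The members that missed the threshold were Slc4a1, the anion exchanger band 3 (0.31 ± 0.22 SE), and Car2, a carbonic anhydrase (0.31 ± 0.18). Without pairs 13 and 21, all 36 members rose in the remaining 23 pairs, with a median change of 0.98, where 29.4% of all genes rose and 26.9% fell; for Slc4a1 the change was then 0.40 ± 0.08 (adjusted p = 9.37e-05) and for Car2 0.48 ± 0.06 (adjusted p = 2.26e-07). The samples carry earlier (10 pairs) or later (15 pairs) identification numbers, and 36 members rose among the earlier pairs, where 22.02% of all genes rose and 21.44% fell, and 28 among the later pairs, which include both doubtful pairs and in which 16.2% of all genes rose and 10.1% fell.

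All 7 transcription factor and receptor genes rose in spleen. Gata1, the central erythroid factor, ranged from 6.41 to 11.64 (median 11.35) in tumor-bearing mice and from 6.10 to 11.51 (median 10.21) in controls, and rose by 1.25 ± 0.18, a fold of 2.38 (adjusted p = 2.56e-06), in 25 of 25 pairs. Over the 23 pairs the tumor-bearing arrays lay within 11.02 to 11.64, whereas controls spread from 8.89 to 11.51, and 22 of 23 controls lay below every tumor-bearing array. Klf1, which activates adult globin and membrane genes, had a median of 12.84 (5.01 to 13.37) in tumor-bearing mice and 11.83 (7.77 to 13.33) in controls, and rose by 1.12 ± 0.25 (adjusted p = 0.000706) in 24 pairs. Its 23 remaining tumor-bearing arrays began at 12.70, above 22 of the 23 controls. Epor, the erythropoietin receptor, had a median of 11 (6.60 to 11.64) against 9.98 (7.96 to 11.54), and rose by 1.01 ± 0.16, a fold of 2.02 (adjusted p = 1.15e-05), in 23 pairs. The groups overlapped through few control arrays: without pairs 13 and 21, 20 of 23 controls lay below all tumor-bearing mice. Nfe2, a factor of late erythroid cells and platelets, rose by 1.49 ± 0.23, Tal1 by 1.38 ± 0.22 and Gfi1b, a repressor needed for red cells and platelets, by 1.04 ± 0.18. Lmo2, the bridging partner of TAL1, rose least (0.44 ± 0.11, and 0.36 ± 0.04 over 23 pairs).

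**Figure D1:**
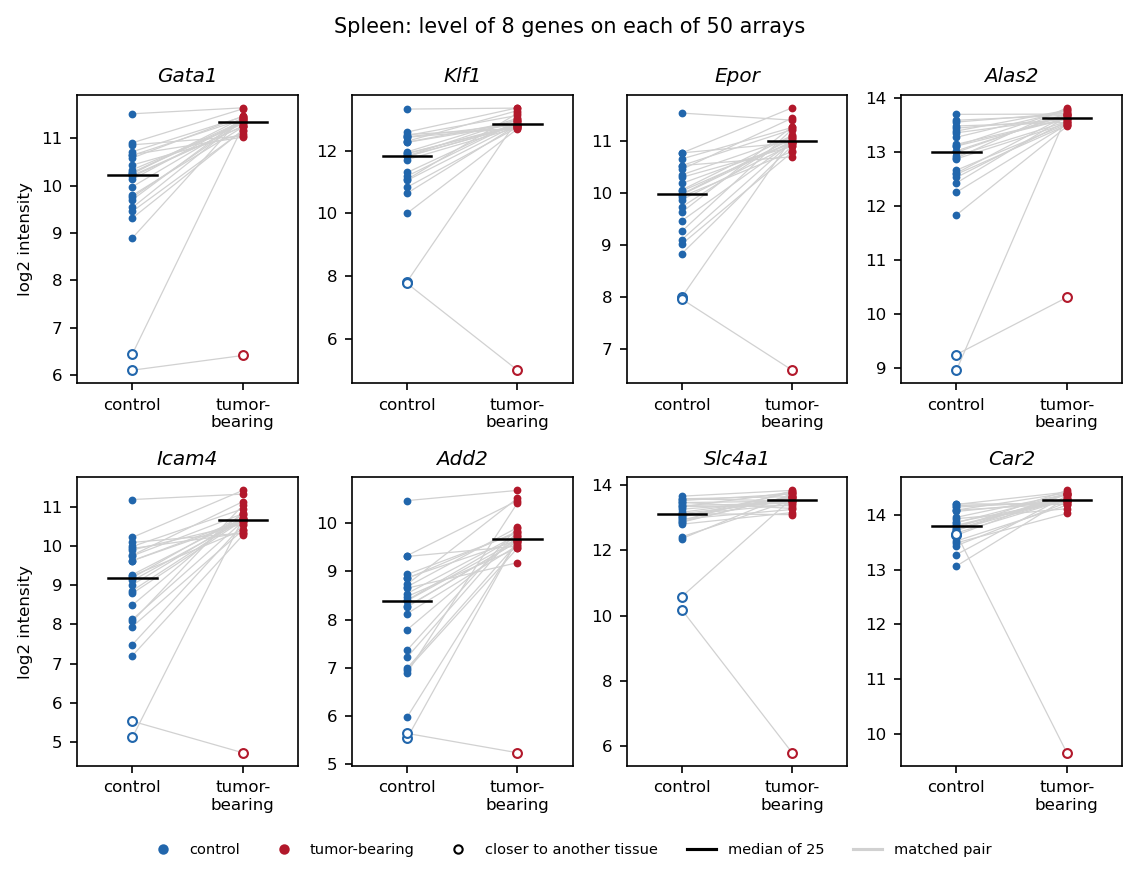
Log2 intensity (vertical axis) of 8 genes on the 25 control and 25 tumor-bearing spleen arrays; points are arrays, grey lines join matched pairs, black bars are medians of 25, and open points are the 3 arrays closer to another tissue. Filled tumor-bearing points lie in a narrow band (Gata1 11.02 to 11.64) above most filled control points (8.89 to 11.51).

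All 10 heme synthesis and transport genes rose in spleen, by less than the membrane skeleton genes (median 0.82 against 1.31; these group medians were not compared by a test). Alas2, the erythroid first enzyme, had a median of 13.62 (10.30 to 13.82) in tumor-bearing mice and 12.99 (8.96 to 13.70) in controls, and rose by 0.83 ± 0.18, a fold of 1.77 (adjusted p = 0.000356), in 25 of 25 pairs; over 23 pairs its rise was 0.65 ± 0.08. The tumor-bearing arrays of those 23 pairs lay within 13.47 to 13.82, above 19 of 23 controls. Ppox, the enzyme before the last step, had a median of 11.18 (8.85 to 11.44) against 10.40 (8.93 to 11.37), and rose by 0.81 ± 0.10 (adjusted p = 1.64e-07) in 24 pairs. Uros, which closes the tetrapyrrole ring, had a median of 12.02 (9.85 to 12.41) against 11.04 (10.04 to 12.25), and rose by 0.91 ± 0.11 (adjusted p = 3.29e-07). Urod, the next enzyme, had a median of 13.01 (11.38 to 13.37) against 12.13 (10.85 to 13.40), and rose by 0.85 ± 0.11 (adjusted p = 3.78e-07), on a probe set of a kind that can cross-hybridize. Both rose in 23 pairs, and outside pairs 13 and 21 all tumor-bearing arrays lay above 20 of 23 controls for Uros and 22 of 23 for Urod. Slc25a38, the mitochondrial carrier that brings in glycine, had a median of 10.52 (8.74 to 11.15) against 9.52 (8.93 to 11.12), and rose by 0.87 ± 0.10 (adjusted p = 1.54e-07). Cpox rose by 1.03 ± 0.16, Alad by 0.77 ± 0.13, Fech, which inserts the iron, by 0.77 ± 0.12, and Slc25a37, the iron importer mitoferrin, by 0.67 ± 0.14. Hebp1, a heme-binding protein, rose least of the 10 (0.34 ± 0.07).

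All 5 skeleton genes rose. Add2, beta-adducin, had a median of 9.66 (5.23 to 10.68) in tumor-bearing mice and 8.39 (5.54 to 10.47) in controls, and rose by 1.59 ± 0.22, a fold of 3.02 (adjusted p = 9.53e-07), in 24 pairs. Ank1, erythroid ankyrin, had a median of 11.95 (8.00 to 12.42) against 10.82 (7.70 to 12.41), and rose by 1.31 ± 0.16 (adjusted p = 2.85e-07) in 25 pairs. Of the 23 controls outside pairs 13 and 21, 20 lay below every tumor-bearing array for Add2 and 21 for Ank1. Sptb, the spectrin beta chain, rose by 1.32 ± 0.19, Epb42, protein 4.2, by 1.27 ± 0.23 and Dmtn, dematin, by 1.15 ± 0.25. Of the 8 surface genes 7 rose. Icam4, the Landsteiner-Wiener antigen, was named for showing the largest change of all members: its median was 10.68 (4.72 to 11.43) against 9.20 (5.11 to 11.20), a rise of 1.62 ± 0.24 or 3.07-fold (adjusted p = 4.29e-06) in 24 pairs. Tspo2, an erythroid sterol-handling protein, had a median of 8.38 (5.97 to 8.99) against 7.46 (6.77 to 8.56), and rose by 0.94 ± 0.10 (adjusted p = 4.29e-08), the smallest p among the members. In Icam4 and Tspo2 alike 22 of the 23 controls lay below all tumor-bearing arrays once pairs 13 and 21 were left out. The blood group genes Kel (1.33 ± 0.26), Rhd (1.29 ± 0.25), Ermap and Rhag (1.08 ± 0.25) rose, as did the water channel Aqp1 (0.62 ± 0.16). Slc4a1 is read by 3 probe sets; the one with the highest mean, which stands for the gene, is of a kind that can cross-hybridize and gave 0.31 ± 0.22, while the others gave 0.79 ± 0.24 and 0.87 ± 0.30, both called higher in a fit over all probe sets. On that probe set tumor-bearing mice had a median of 13.53 (5.80 to 13.83) and controls 13.12 (10.18 to 13.65).

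Among the red cell enzymes Car1 rose by 0.88 ± 0.26 and Bpgm, which makes the regulator of oxygen release, by 0.64 ± 0.11. The late proteins Trim10 (1.33 ± 0.24), Tmcc2 (1.15 ± 0.22) and Hemgn (0.83 ± 0.25) also rose. In all 14 genes read by several probe sets, every probe set pointed the same way in spleen.

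The members' spread also differed between the groups. Over the 23 pairs the standard deviation of the members' log2 level had a median of 0.17 among tumor-bearing mice and 0.61 among controls, and it was smaller in tumor-bearing mice for 36 of 36 members; over all genes the medians were 0.16 and 0.17, and 55.2% of genes had the smaller value in tumor-bearing mice. Over 25 pairs in blood 34 of 36 members had the smaller value in tumor-bearing mice (medians 0.44 and 0.67), as did 82.2% of all genes. In liver 35 of 36 did (0.25 and 0.56), as did 92.2% of all genes, so most genes went this way in both tissues. Unlike the 23 spleen pairs, these pairs include the arrays that stood apart, all of them controls in blood. The spread was not recomputed without them. In spleen, for the median member, 20 of the 23 controls lay below every tumor-bearing mouse, but for 0 of 36 members were the groups fully apart. These overlap counts were not made over all genes. The upper overlap came mostly from 1 control mouse: the control of pair 16 was the highest of the 23 controls for 34 of the 36 members, with Gata1 at 11.51 against 11.64 in its partner and Epor at 11.54 against 11.40. Pair 16 had 20 of 36 members higher in the tumor-bearing mouse, with a median difference of 0.00. In the median pair of spleen 36 of 36 members were higher, and in 23 of 25 pairs more than 30 were. The exceptions were pairs 16 and 21, and pair 21, with both arrays closer to other tissues, had 6.

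**Figure D2:**
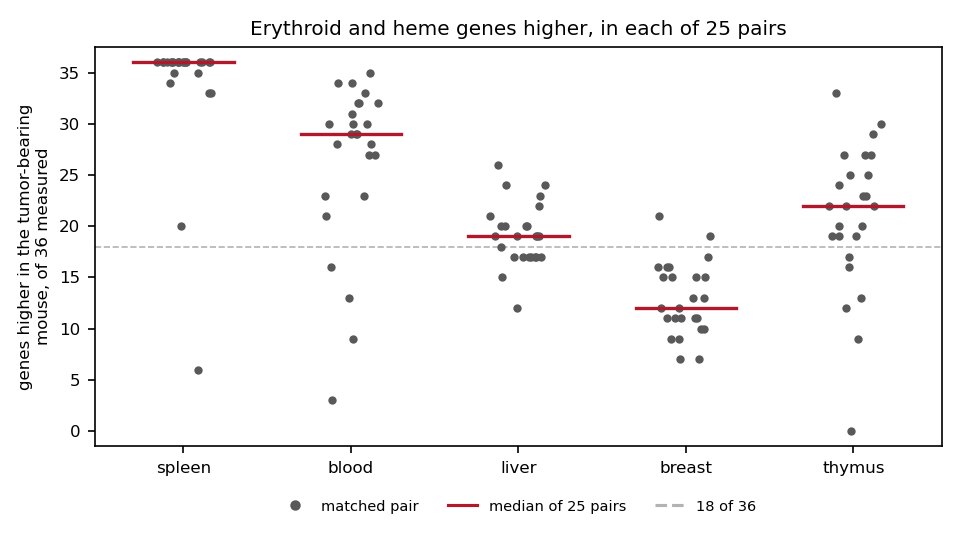
Number of the 36 measured genes that were higher in the tumor-bearing mouse (vertical axis) in each of 25 pairs of 5 tissues; points are pairs, spread sideways for display, red bars are medians and the dashed line marks 18. Spleen pairs crowd at 36, with pair 16 at 20 and pair 21 at 6; the thymus pair at 0 is pair 20.

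The members' changes went together across spleen pairs. The within-pair change of Alas2 correlated with that of the other 35 members with a median Pearson r of 0.81 over 25 pairs, from -0.0015 (Aqp1) to 0.98 (Slc25a37); 27 of 35 passed a two-sided permutation test adjusted over the 35, and 35 did by Spearman's rho. Leaving out the 2 pairs farthest from the median Alas2 change lowered the median r to 0.50. Without pairs 13 and 21 the median r was 0.82 over 23 pairs, from 0.49 (Car1) to 0.96 (Fech), all 35 passed by both measures, and the median remained 0.74 after leaving out another 2 pairs. The strongest was Fech, with r = 0.96 and rho = 0.94 (adjusted permutation p = 1.4e-05 and 2.9e-05, from the smallest p that 100000 permutations give), and the next was Bpgm (r = 0.95). Over all genes the median r with Alas2 was -0.05 over 25 pairs, and the share of all genes passing was not computed. Members spread more among controls than among tumor-bearing mice (median standard deviation 0.61 and 0.17 over 23 pairs). Within-pair changes therefore also hold the spread among controls. The pairs share arrays and processing across members, so the 35 values are not independent.

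Other genes of the path moved in spleen too. Of 41 further erythroid and heme genes measured, 29 rose and 2 fell, with a median change of 0.78, and without pairs 13 and 21 the counts were 31 higher and 7 lower. Art4, the Dombrock blood group gene, rose by 1.11 ± 0.11 (adjusted p = 8.69e-09), Tfrc, the transferrin receptor that brings in iron, by 0.95 ± 0.12, and Bcl2l1, which keeps late erythroblasts alive, by 0.78 ± 0.10. Slc2a1, a glucose transporter, fell by 0.51 on the log2 scale (SE 0.05, adjusted p = 1.42e-08). Of 6 globin genes 4 rose, Hbb-b2 by 0.95 ± 0.21, and the embryonic Hbb-bh1 and Hbb-y by 0.41 ± 0.05 and 0.27 ± 0.04. Markers of other cells moved beside the members, and their part in the members' changes was not tested. All 14 neutrophil genes rose (median change 2.74; Mmp9, a granule protease, by 3.01 ± 0.21), with a summed intensity of 9158 to 182800 in tumor-bearing mice and 2299 to 64530 in controls. All 9 cell cycle genes rose (median 1.24; Bub1 by 1.75 ± 0.26), 5 of 5 mast cell and basophil genes, 5 of 6 platelet genes, which share NFE2 and GATA1 with red cells, and 3 of 8 stem and progenitor genes (1 fell), Myb by 1.34 ± 0.34. B cell genes fell in 2 of 7 and T cell genes in 1 of 7 over all pairs, and in 7 of 7 each without pairs 13 and 21; macrophage genes fell in 1 of 8 and then in 8 of 8. The 3′ to 5′ ratio of Gapdh, a sign of RNA breakdown, was 0.12 higher on the log2 scale in tumor-bearing spleens (adjusted permutation p = 0.0443, two-sided), and that of beta-actin 0.05 higher (adjusted p = 0.39).

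In blood cells fewer members moved, and the changes were smaller. Of 36 members 16 rose and 1 fell, where 8.71% of all genes rose and 4.36% fell, with a median change of 0.39 against -0.03 for all genes. By role, 2 of 7 factor and receptor genes, 4 of 10 heme genes, 3 of 5 skeleton genes, 5 of 8 surface genes, 1 of 3 red cell enzymes and 1 of 3 late proteins rose. Without the 4 pairs whose control array stood apart (7, 9, 13 and 16), 22 rose and 2 fell in 21 pairs, where 10.2% of all genes rose and 12.1% fell. Among earlier pairs 1 rose, Urod, whose probe set is of a kind that can cross-hybridize, and 0 fell, where 1.66% of all genes rose and 0.0825% fell. Among later pairs 14 rose and 0 fell, where 6.18% of all genes rose and 5.54% fell. Quantile normalization within the tissue left 9 higher and 1 lower, where 8.21% of all genes rose and 6.55% fell.

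The largest change in blood was that of Epb42, which ranged from 6.61 to 8.76 (median 7.74) in tumor-bearing mice and from 4.68 to 7.78 (median 6.71) in controls, and rose by 1.09 ± 0.16, a fold of 2.12 (adjusted p = 2.34e-05), in 23 of 25 pairs. Dmtn had a median of 8.73 (7.97 to 9.47) against 8.01 (6.15 to 9.11), and rose by 0.72 ± 0.14 (adjusted p = 0.000591) in 23 pairs. For Epb42, 9 of 25 controls lay below every tumor-bearing mouse, and for Dmtn 11, so the groups overlapped in both. Urod had a median of 10.38 (8.78 to 11.46) against 9.25 (6.99 to 10.61), and rose by 0.95 ± 0.15 (adjusted p = 6.14e-05) in 23 pairs, and Cpox, the coproporphyrinogen oxidase, had 7.01 (6.39 to 7.94) against 6.68 (5.51 to 7.49), a rise of 0.48 ± 0.10 (adjusted p = 0.00158). Kel, the blood group protease, had a median of 8.94 (8.01 to 9.73) against 8.13 (5.34 to 9.14), and rose by 0.92 ± 0.19 (adjusted p = 0.000923). The same direction held in Rhd, with 7.53 (6.16 to 8.81) against 6.85 (4.27 to 7.75), a rise of 0.84 ± 0.18 (adjusted p = 0.00134) in 20 pairs. Car2 had a median of 12.46 (11.61 to 13.29) against 11.76 (9.15 to 12.48), and rose by 0.91 ± 0.18 (adjusted p = 0.000546), with 12 tumor-bearing arrays above every control. Trim10 had 11.86 (10.76 to 12.57) against 11.08 (7.76 to 11.97), a rise of 0.98 ± 0.21 (adjusted p = 0.00158).

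Gata1, Klf1, Epor and Alas2 were not called in blood. Gata1 had a median of 7.83 (7.06 to 8.79) in tumor-bearing mice and 7.89 (6.96 to 9.34) in controls, a change of -0.04 ± 0.11 (adjusted p = 0.875). Klf1 had 7.42 (6.02 to 7.95) against 7.25 (5.49 to 8.18), a change of 0.11 ± 0.13 (adjusted p = 0.7). Epor had 6.50 (5.58 to 7.08) against 6.52 (5.94 to 7.51), a change of -0.01 ± 0.09 (adjusted p = 0.958). In all 3 factor and receptor genes the groups overlapped over nearly their whole range. Alas2 stood at a median of 14.59 in both groups, from 14.43 to 14.64 in tumor-bearing mice and 12.45 to 14.63 in controls, and 13 of 25 pairs had it higher. Fech, with medians of 14.56 in tumor-bearing mice and 14.52 in controls, was not called either. Both levels were high with little spread among tumor-bearing mice (standard deviation 0.05 for Alas2 and 0.04 for Fech). Whether their probe sets could read a further rise was not tested. Slc4a1 rose from a median of 12.65 (9.42 to 13.16) to 13.11 (12.52 to 13.57), by 0.53 ± 0.15 (adjusted p = 0.0153) in 23 pairs, and its 3 probe sets all rose. Gfi1b fell by 0.34 on the log2 scale (SE 0.09, adjusted p = 0.00812) in 21 of 25 pairs, and Tal1, at -0.31 ± 0.19, was not called over all pairs but was lower without the 4 pairs (-0.50 ± 0.13, adjusted p = 0.00937) and also without pair 13 alone.

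Of the 41 further path genes 12 rose and 1 fell in blood. Slc2a1 rose by 2.02 ± 0.21 (adjusted p = 5.44e-08), while it fell in spleen, and the heme exporter Flvcr1 by 0.87 ± 0.15 and Hmox1, which breaks heme down, by 0.70 ± 0.09. Neutrophil genes rose in 9 of 14 (Ngp by 4.89 ± 0.33), and B cell genes fell in 6 of 7, and T cell genes in 3 of 7; their part in the members' changes was not tested. The summed intensity of 6 globin genes ran from 7301 to 19610 in tumor-bearing mice and from 6935 to 19030 in controls. That sum was almost wholly Hbb-b2, with mean log2 levels of 13.80 in tumor-bearing mice and 13.85 in controls. The next brightest, Hba-a2, had 6.33 and 6.04, and Hba-a1 had 3.90 and 4.07, near the floor of 3.50. The sum therefore does not read the globin genes as a group. Across blood pairs the change of Alas2 correlated with other members with a median r of 0.42. By r 13 positive and 1 negative passed the permutation test, but 0 positive ones did by rho. The median r without the 2 farthest pairs was 0.19, so the median relation rested largely on 2 pairs. Without them r ran from -0.31 (Slc25a38) to 0.62 (Slc25a37), the next highest being Bpgm (0.57). Over all genes the median r was -0.02, and the share passing was not computed.

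**Figure D3:**
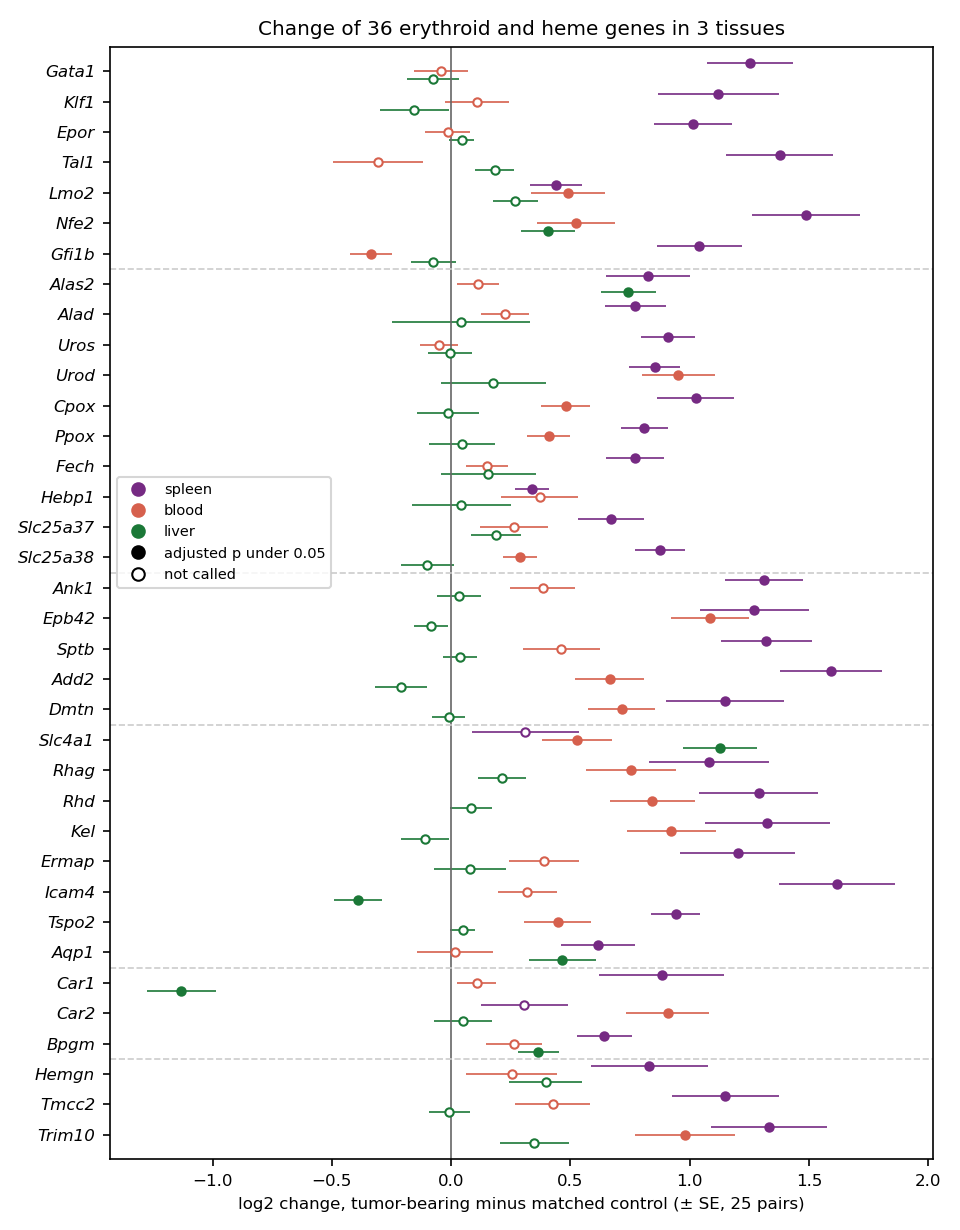
Log2 change, tumor-bearing minus matched control, with its standard error over 25 pairs (horizontal axis) for the 36 measured genes, grouped by role between dashed lines; colours are tissues, filled points passed an adjusted p of 0.05. Spleen points lie between 0.31 and 1.62, blood points between -0.34 and 1.09, and liver points mostly near 0 with Car1 at -1.13 and Slc4a1 at 1.13.

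In liver 5 members rose and 2 fell, where 7.89% of all genes rose and 2.28% fell, and 19.4% of the members were called in either direction. The median change was 0.05, against 0.01 for all genes. Slc4a1 ranged from 4.56 to 6.80 (median 5.28) in tumor-bearing mice and from 3.62 to 6.50 (median 4.08) in controls, and rose by 1.13 ± 0.15, a fold of 2.19 (adjusted p = 5.93e-06), in 23 of 25 pairs. Only 4 controls reached the lowest tumor-bearing mouse. The other probe sets of Slc4a1 gave 0.45 ± 0.18 and 0.05 ± 0.08 and were not called. The rise thus rests on 1 of 3 probe sets, of a kind that can cross-hybridize. Alas2 had a median of 8.68 (7.52 to 9.85) against 8.05 (6.24 to 8.85), and rose by 0.74 ± 0.12, a fold of 1.67 (adjusted p = 3.5e-05), in 23 pairs, with 8 tumor-bearing arrays above every control. Bpgm had 8.38 (7.53 to 8.79) against 8.05 (6.68 to 8.44), a rise of 0.37 ± 0.08 (adjusted p = 0.00357). Aqp1 had 11.26 (10.14 to 11.73) against 10.97 (7.82 to 11.20), a rise of 0.47 ± 0.14 (adjusted p = 0.0294), with 16 tumor-bearing arrays above every control. Nfe2 had 5.25 (4.89 to 5.96) against 4.78 (3.56 to 6.08), a rise of 0.41 ± 0.11 (adjusted p = 0.0178) in 18 pairs.

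Car1 went the other way in liver. It had a median of 6.54 (5.51 to 7.03) in tumor-bearing mice and 7.58 (6.34 to 9.72) in controls, and fell by 1.13 on the log2 scale (SE 0.14, adjusted p = 1.71e-06), lower in 24 of 25 pairs. Icam4 had 4.67 (3.98 to 5.21) against 5.03 (4.53 to 6.82) and fell by 0.39 (SE 0.10, adjusted p = 0.0106), though at a level not far above the floor of 3.50 set for dim probe sets. The factors and the receptor were not called. Gata1 had 4.36 (3.87 to 4.86) against 4.33 (3.62 to 6.82), a change of -0.08 ± 0.11 (adjusted p = 0.721), also at a level not far above the floor. Klf1 had 7.25 (6.62 to 7.72) against 7.55 (4.68 to 8.08), a change of -0.15 ± 0.14 (adjusted p = 0.57). Epor had 6.94 (6.64 to 7.19) against 6.86 (6.20 to 7.24), a change of 0.04 ± 0.05 (adjusted p = 0.668), and in all 3 the groups overlapped. Epb42 was at the floor on 48 of 50 arrays.

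In liver 5 arrays stood apart (controls of pairs 2, 7 and 8, tumor-bearing mice of pairs 15 and 17), the control of pair 2 with a correlation of 0.33 with the liver profile. Without these pairs 11 members rose and 7 fell in 20 pairs, where 18.6% of all genes rose and 18.9% fell. The 7 main calls held, with Slc4a1 at 1.26 ± 0.11, Alas2 at 0.76 ± 0.10 and Car1 at -1.09 ± 0.15. Tal1 (0.28 ± 0.06), Lmo2, Rhag, Ermap, Hemgn and Trim10 then rose, while Klf1 (-0.34 ± 0.06), Alad (-0.21 ± 0.05), Cpox, Hebp1 (-0.15 ± 0.02) and Slc25a38 fell. Leaving out pair 2 alone gave 9 higher and 4 lower, and the share of all genes was not computed for that fit. Among earlier pairs 0 members were called, where 0.456% of all genes rose, and among later pairs 11 rose and 5 fell, where 12.2% of all genes rose and 11.7% fell; in the earlier pairs Slc4a1 was at 0.87 ± 0.32, Alas2 at 0.58 ± 0.22 while Car1 had a change of -1.2 (SE 0.32). Beside these changes 13 of 14 neutrophil genes rose in liver (Prtn3, a granule protease, by 5.75 ± 0.12, summed intensity 1978 to 37840 against 599 to 1056), 6 of 9 cell cycle genes rose, Kit and Cd34 of the stem and progenitor genes rose, and 3 of 6 platelet genes rose; their part in the members' changes was not tested. Of the 41 further path genes 4 rose and 2 fell, Flvcr1 by 0.35 ± 0.07, and of the 6 globin genes Hbb-b2 rose by 0.52 ± 0.12.

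**Figure D4:**
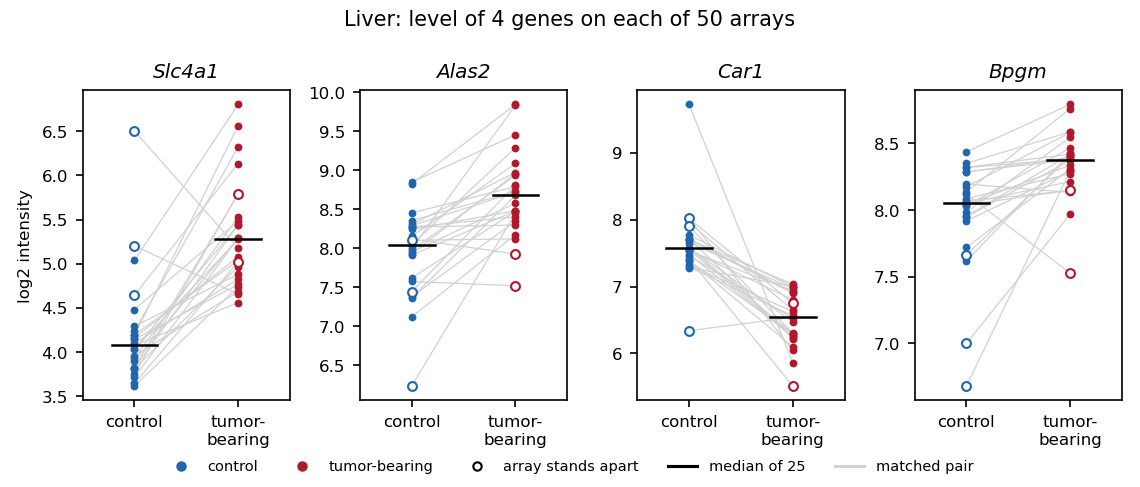
Log2 intensity (vertical axis) of 4 genes on the 25 control and 25 tumor-bearing liver arrays; points are arrays, grey lines join matched pairs, black bars are medians of 25, and open points are the 5 arrays that stand apart. Slc4a1, Alas2 and Bpgm lie higher in tumor-bearing mice and Car1 lower (medians 6.54 against 7.58).

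The within-pair changes were compared between tissues over pairs linked by the prefix of their sample identification numbers. For 7 of the 25 links the prefix belongs to 1 pair; the other 18 share a prefix among up to 3 pairs and were linked by order, which the labels do not state, so those links are assumed. Over the 7 links alone 5 members differed between spleen and blood, 20 between spleen and liver and 0 between liver and blood, where 1.49%, 3.93% and 0.143% of all genes were called higher and 0.808%, 4.55% and 0.165% lower. In spleen against blood 21 members changed more in spleen and 0 more in blood, where 11.4% of all genes were called higher and 9.94% lower. Uros had the smallest p, with 0.96 ± 0.15 more in spleen (0.91 against -0.05, adjusted p = 1.77e-05, above zero in 24 of 25 linked pairs), followed by Gfi1b (1.38 ± 0.23), Tal1 (1.68 ± 0.30, the largest difference) and Gata1 (1.30 ± 0.23). Of the 7 factor and receptor genes 6 differed, all but Lmo2, whereas Epb42 (0.18 ± 0.26), Urod (-0.10) and Car2 (-0.60) did not. Without the doubtful arrays 23 members changed more in spleen over 23 linked pairs, where 13.5% of all genes were called higher and 13.6% lower, and the Gata1 difference was 1.13 ± 0.18.

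In spleen against liver 24 members changed more in spleen and 1 less, where 9.17% of all genes were called higher and 10.4% lower. Icam4 differed by 2.01 ± 0.25 (adjusted p = 1.01e-06), Add2 by 1.80 ± 0.23, Ank1 by 1.28 ± 0.17 and Tspo2 by 0.89 ± 0.12. Car1, which rose in spleen and fell in liver, differed by 2.01 ± 0.31. Slc4a1 was the exception, with -0.82 ± 0.25 (adjusted p = 0.022), and this turned to 0.34 ± 0.29 (adjusted p = 0.445) when probe sets that can cross-hybridize were set aside. In liver against blood 2 members changed more in liver, Alas2 (0.63 ± 0.11) and Slc4a1 (0.60 ± 0.19, but -0.37 ± 0.24 without such probe sets), and 11 less, where 7.02% of all genes were called higher and 5.28% lower. Car1 differed by -1.24 ± 0.14 (adjusted p = 9.71e-08), Epb42 by -1.17 ± 0.18 and Add2 by -0.87 ± 0.18. In liver Epb42 and Add2 lay at or near the floor, which limits both contrasts with liver for them. Alas2 and Fech were high with little spread in blood, and the part of this in their contrasts with blood was not tested. The spleen, blood and liver contrasts share mice and one another's arrays, so their counts are not independent. The spleen change of a member was set against its blood change over the 25 linked pairs: Pearson's r had a median of 0.08 over the 36 members, from -0.46 (Gfi1b) to 0.34 (Urod), and Spearman's rho a median of 0.15. After adjustment 0 of 36 passed the permutation test by either measure; at an unadjusted p under 0.05, 1 passed by r and 4 by rho. Leaving out the 2 pairs farthest from the median spleen change raised the median r to 0.28. Without pairs 13 and 21 the median r was 0.24 over 23 linked pairs, from -0.53 (Gfi1b) to 0.58 (Trim10), and again 0 passed after adjustment, with 8 at an unadjusted p under 0.05 by r and 9 by rho.

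Breast and thymus stand beside these tissues. In breast, where the tumor lies, 5 members rose and 15 fell, against 30.1% of all genes higher and 32.3% lower. Car2 rose by 2.32 ± 0.19, from a median of 8.90 (8.07 to 11.30) in controls to 11.48 (9.28 to 12.08), while Dmtn (-2.36 ± 0.19), Tmcc2 (-2.12 ± 0.20), Ank1 (-1.67 ± 0.26), Alad (-1.31 ± 0.12) and Aqp1 (-1.28 ± 0.17) fell; Alas2 (-0.05 ± 0.15) and Slc4a1 (-0.03 ± 0.16) were not called. The 3′ to 5′ ratios of Gapdh and beta-actin also differed in breast, by -0.76 and -0.39 on the log2 scale (adjusted permutation p = 0.00065 for both), and B and T cell genes fell in 7 of 7 each. All 9 cell cycle genes rose (median change 2.06), and of 7 genes of mammary epithelium and fat 4 rose and 2 fell: the epithelial Epcam rose by 2.19 ± 0.18 and Krt8 by 1.59 ± 0.15, whereas the fat cell genes Adipoq (-3.42 ± 0.33) and Lep (-4.52 ± 0.35) fell. The part of these in the members' changes was not tested. In thymus 0 members rose and 0 fell, against 0.011% and 0.0% of all genes, by limma at an adjusted p under 0.05. Alas2 changed by 1.26 ± 0.33 (adjusted p = 0.734) and Slc4a1 by 1.39 ± 0.40 (adjusted p = 0.829), higher in 20 and 22 of 25 pairs. Pair 20, whose control array is closest to spleen, had 0 of 36 members higher and a median difference of -4.71. Without pairs 11 and 20 the changes of Alas2 and Slc4a1 were 1.33 ± 0.29 and 1.57 ± 0.34 (adjusted p = 0.0792 for both), and again 0 members were called.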

How the data were processed

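RNA from spleen, blood cells, liver, breast and thymus of 25 matched pairs per tissue was hybridized to 1-colour Affymetrix arrays, 1 array per sample, after Trizol extraction and one-cycle biotin labelling, per the labels' protocols. What the authors deposited is an intensity on a linear scale for each of 45101 probe sets; how background and scaling were handled is not given in the sources used here, and the median array intensity of a tissue ran from 25.2 in blood to 129.5 in thymus. The precision is limited by the number of arrays.

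Intensities were raised to a floor of 11.3 (the 5th percentile of all values) and converted to log2. Of the probe sets 34958 carried 1 gene symbol, 932 several and 9211 none; the brightest on average stood for each of 18193 genes. Tissue by tissue, limma 3.58.1 (R 4.3.3) estimated the change with a term for each matched pair and moderated variances, and p-values were adjusted by Benjamini and Hochberg's method across every gene; called means an adjusted p under 0.05. The pairing comes from the labels, and the correlation of paired deviations had a median of 0.08 to 0.32 by tissue against -0.02 to 0.01 between other arrays. Tissues were compared by fitting differences of within-pair changes over linked pairs; the link rests on the prefix of the sample identification numbers and, for 18 of 25 pairs, on an assumed order within a shared prefix. The code was tested on simulated data. Correlations used 100000 permutations, two-sided. Promoter letters were read from the RefSeq table of build GRCm38.p6.

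The members, the gene lists, the roles and the alternatives were chosen with earlier results of these data known. Genes named in full were the factors and receptor Gata1, Klf1 and Epor, Alas2, Slc4a1 and the called members with the strongest tests or largest changes in each tissue; promoters and letters were chosen after matches had been seen. Leaving out each pair in turn, and leaving out pairs with an array closer to another tissue, were also chosen after seeing the data. Whether p-values cover more than the spread between these mice cannot be told from the labels beyond the pairing.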

Additional observations from a re-analysis of the deposited data

Results flagged for a closer look

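The change between tumor-bearing and control mice differed between tissues for several members, by a test of the difference itself over 25 linked pairs (limma, Benjamini-Hochberg adjusted over all genes). Those with the smallest p in each comparison are given here. Against blood, spleen showed a larger change of Uros (0.96, above zero in 24 of 25 linked pairs, adjusted p = 1.77e-05), Gfi1b (1.38, 23 of 25, adjusted p = 4.34e-05), Tal1 (1.68, 22 of 25, adjusted p = 0.000109) and Gata1 (1.30, 24 of 25, adjusted p = 0.000137). Gfi1b rose in spleen and fell in blood.

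Against liver, spleen showed a larger change of Icam4 (2.01, 24 of 25, adjusted p = 1.01e-06), Add2 (1.80, 24 of 25, adjusted p = 1.15e-06), Ank1 (1.28, 24 of 25, adjusted p = 2.2e-06) and Tspo2 (0.89, 23 of 25, adjusted p = 3.25e-06). Icam4 rose in spleen and fell in liver.

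Against blood, liver showed a lower change of Car1 (-1.24, below zero in 24 of 25, adjusted p = 9.71e-08), Epb42 (-1.17, 23 of 25, adjusted p = 2.29e-05) and Add2 (-0.87, 20 of 25, adjusted p = 0.00117), and a higher one of Alas2 (0.63, above zero in 22 of 25, adjusted p = 0.000154). Epb42 was at the floor on 48 of 50 liver arrays. Add2 had liver medians of 3.71 in tumor-bearing mice and 3.79 in controls, near the floor of 3.50. Alas2 had a median of 14.59 in both groups of blood, and whether it could read a further rise there was not tested. The tissues may have been scaled separately, and the part of scaling in these differences was not tested.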

How the results depend on the processing

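Of 1702 values recomputed under the alternatives 1503 kept their direction and side of the threshold, 181 no longer passed it, 7 newly passed it and 11 turned. Members higher in blood (16) numbered 9 after quantile normalization and 1 among earlier pairs; members lower in blood (1) numbered 2 without the arrays that stand apart and 0 among earlier and among later pairs. In liver the 5 higher and 2 lower became 3 and 1 without genes under the median level, 11 and 7 without arrays that stand apart, 0 and 0 among earlier pairs, 11 and 5 among later pairs, and 3 and 1 at an adjusted p under 0.01. In breast the 5 higher became 3 without dim genes, 2 among earlier pairs and 3 at an adjusted p under 0.01, and the 15 lower became 8 without dim genes. The 21 members differing between spleen and blood became 12 among earlier pairs, 9 among later pairs and 5 over the 7 linked pairs with an unshared prefix. The 25 between spleen and liver became 10 without dim genes and 16 among earlier pairs, and the 13 between liver and blood became 5 without dim genes, 0 among earlier pairs, 0 over the 7 linked pairs and 8 at an adjusted p under 0.01. Among earlier pairs 18.35% of all genes rose in breast. The contrasts then called 4.52% higher and 5.09% lower (spleen against blood), 2.47% and 2.985% (spleen against liver), and 0.258% and 0.451% (liver against blood). Among later pairs spleen against blood called 8.50% higher and 4.34% lower. Shares of all genes without dim genes and at an adjusted p under 0.01 are not given here. Earlier pairs, the 7 linked pairs and the filter use fewer samples or genes, and the cause of the other shifts was not tested.

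Leaving out each pair in turn gave 34 to 36 members higher and 0 lower in spleen. In blood it gave 14 to 21 higher and 1 to 2 lower (21 and 2 without pair 13). In liver it gave 4 to 9 higher and 2 to 4 lower (9 and 4 without pair 2). The share of all genes was not computed for these fits. Without the replicate block for the matched pair, 31 members were higher in spleen, 14 in blood, 6 in liver and 4 in breast. In the same order 0, 1, 2 and 15 were lower, and no count moved by over 1.5 times. Of all genes 20.7%, 8.34%, 7.34% and 28.7% were then higher, and 16.1%, 3.40%, 2.12% and 30.8% lower.

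The values that turned were small or rested on the choice of probe set. In blood Klf1 was -0.022 after quantile normalization, and Epor 0.038 without the arrays that stand apart and 0.037 among later pairs. In liver Gata1 was 0.014 among later pairs, Klf1 0.039 among earlier pairs, and Epor -0.13 after quantile normalization and -0.055 among earlier pairs. The difference of Slc4a1 between spleen and liver was 0.12 as the mean of its probe sets and 0.34 without cross-hybridizing ones, and that between liver and blood -0.30 and -0.37. Members near the floor (Epb42, Add2 and Rhag in liver) carry little signal over background. Slc4a1 in control livers, with a median of 4.08, was also not far above the floor.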
